A study of Homo sapiens with 6 samples.

Results

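The genes described here are 63 protein-coding genes that encode collagens, laminins, integrin subunits and a small set of matrix or collagen-receptor proteins, out of 21301 genes in the deposited table. They were chosen by symbol: 28 collagen chains, 10 laminin chains, 13 alpha integrins and 6 beta integrins were taken as whole families, whatever the values of single genes. The choice of these families was also made with earlier results of these data known. MRC2, FN1, SPOCK1, SPOCK2, THBS1 and TNC were chosen by name, with the changes of these genes in the same libraries known. For these 6 genes the values and calls are therefore given as a description only, and no p-value is printed for them. SPOCK3, 16 collagen genes (COL6A3 among them), 2 laminin genes and 5 integrin genes of the RefSeq gene table were not analysed here.

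The cells were SH-SY5Y, a human neuroblastoma line, treated for 72 h with a control siRNA (siControl) or with an siRNA against the RNA-binding protein PSF (siPSF), each at 10 nM, and RNA was sequenced as 3 libraries per group. The comparison addresses which genes change when a neuron-like cell has less PSF, a nuclear protein of paraspeckles that acts in transcription and RNA processing. The study describes the libraries of a group as biological replicates, and the p-values measure the spread between them. In such bulk RNA a smaller number of cells of a type and less RNA per cell cannot be told apart. Total counts ranged from 119019293 to 132420931 in siControl and from 101540520 to 120627283 in siPSF. SFPQ, the gene for PSF, was measured at 372, 356 and 401 CPM (counts scaled to the library total) in siControl and at 209, 193 and 165 CPM in siPSF. The fitted log2 fold change was -0.99 ± 0.10 (standard error, SE, adjusted p = 9.5e-05 by edgeR's quasi-likelihood test). All 12 noradrenergic neuroblastoma markers were in the table, with a sum of 6117 to 6857 CPM in siControl and 5583 to 6803 CPM in siPSF, and of them 1 was called higher and 2 lower. The 9 measured mesenchymal markers summed to 377 to 407 CPM in siControl and to 345 to 372 CPM in siPSF, and of them COL3A1, which is also one of the collagens below, and PDGFRA were called lower. Of the 9, 5 were fitted below 0 and 4 above, with LUM at 0.57 and COL1A1 at 0.55. By DESeq2 2 of the 9 were called higher and 3 lower. The edgeR calls were 25.0% of the neuroblastoma and 22.2% of the mesenchymal markers, beside 14.9% of all genes tested. The 3 measured Schwann or glial markers summed to at most 3.14 CPM in any library, and no endothelial marker was in the table. Whether a shift towards or away from mesenchymal cells had a part in the changes below was not tested.

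Collagens assemble from alpha chains into helical trimers, which form fibrils, networks or beaded filaments. Laminins join an alpha, a beta and a gamma chain into cross-shaped proteins that, with type IV collagen, form the basement membrane. Integrins are paired alpha and beta subunits through which cells hold on to these proteins, and MRC2 encodes a surface receptor that takes collagen up for breakdown. Neuroblasts and neurons meet this matrix while they migrate and extend neurites.

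Levels are compared between genes as FPKM, fragments scaled to exon length and to mapped reads. In siControl, 27 of the 63 genes had a mean above 1 FPKM. The gene with the highest level was LAMB1, a laminin beta chain, at 73.0 ± 5.14 FPKM (SD, n = 3), followed by the shared integrin beta subunit ITGB1 at 66.8 ± 10.3 FPKM, a difference within the spread of the libraries. MRC2 came next with 36.3 ± 1.14 FPKM, above LAMC1 with 24.9 ± 4.97 FPKM and the collagen VI chain COL6A2 with 23.4 ± 1.04 FPKM, and the last pair did not differ beyond their spread. At the lower end, 18 of the 63 genes, 12 of them collagens, had a mean under 1 CPM over the 6 libraries. The lowest count of any of the 63 genes in any library was 5.

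**Figure D1:**
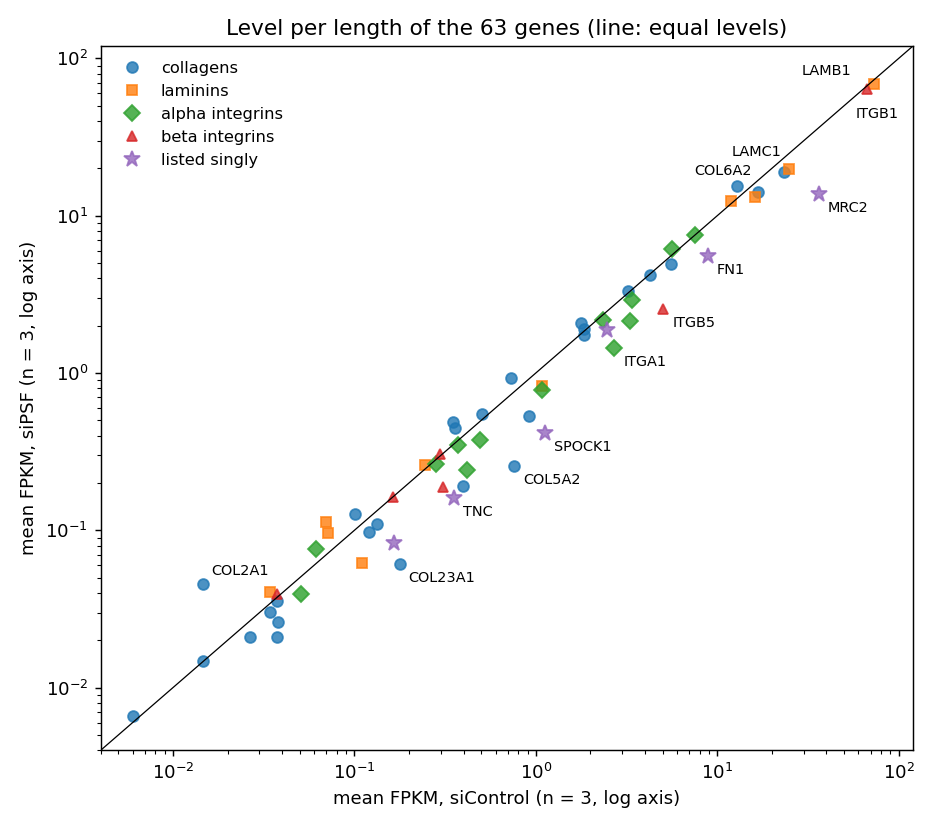
Mean level of each of the 63 genes in siPSF (vertical axis) against siControl (horizontal axis), both in FPKM on log axes, with 3 libraries per group and 1 symbol per gene. Most genes lie near the line of equal levels, while MRC2, at 36.3 FPKM in siControl and 13.7 FPKM in siPSF, is the farthest below it among the genes above 10 FPKM.

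After siPSF, 12 of the 63 genes were called lower and 1 was called higher at an adjusted p under 0.05, and all 63 had passed the filter on low counts. Of the 12, 5 were among the 6 genes chosen by name with their changes known. Of all 19694 genes tested, 14.9% were called, 6.65% higher and 8.27% lower. Without the 6 genes chosen by name, 8 of 57 genes (14.0%) were called, 7 lower and 1 higher, which is near the share of all genes. The median log2 fold change of these 57 genes was -0.01, beside a median of 0.01 over all genes. Values of the 3 siControl and the 3 siPSF libraries did not overlap for 13 of the 57 genes, beside 34.4% of all genes tested. Counted with the 6 genes chosen by name, the number called lower among the 63 fell to 7 without siControl replicate 2 and also without siControl replicate 3. The number called higher was between 0 and 3 when 1 library was left out, 0 without siControl replicate 2 or 3 or siPSF replicate 2, 2 without siControl replicate 1, and 3 without siPSF replicate 1 or 3.

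**Figure D2:**
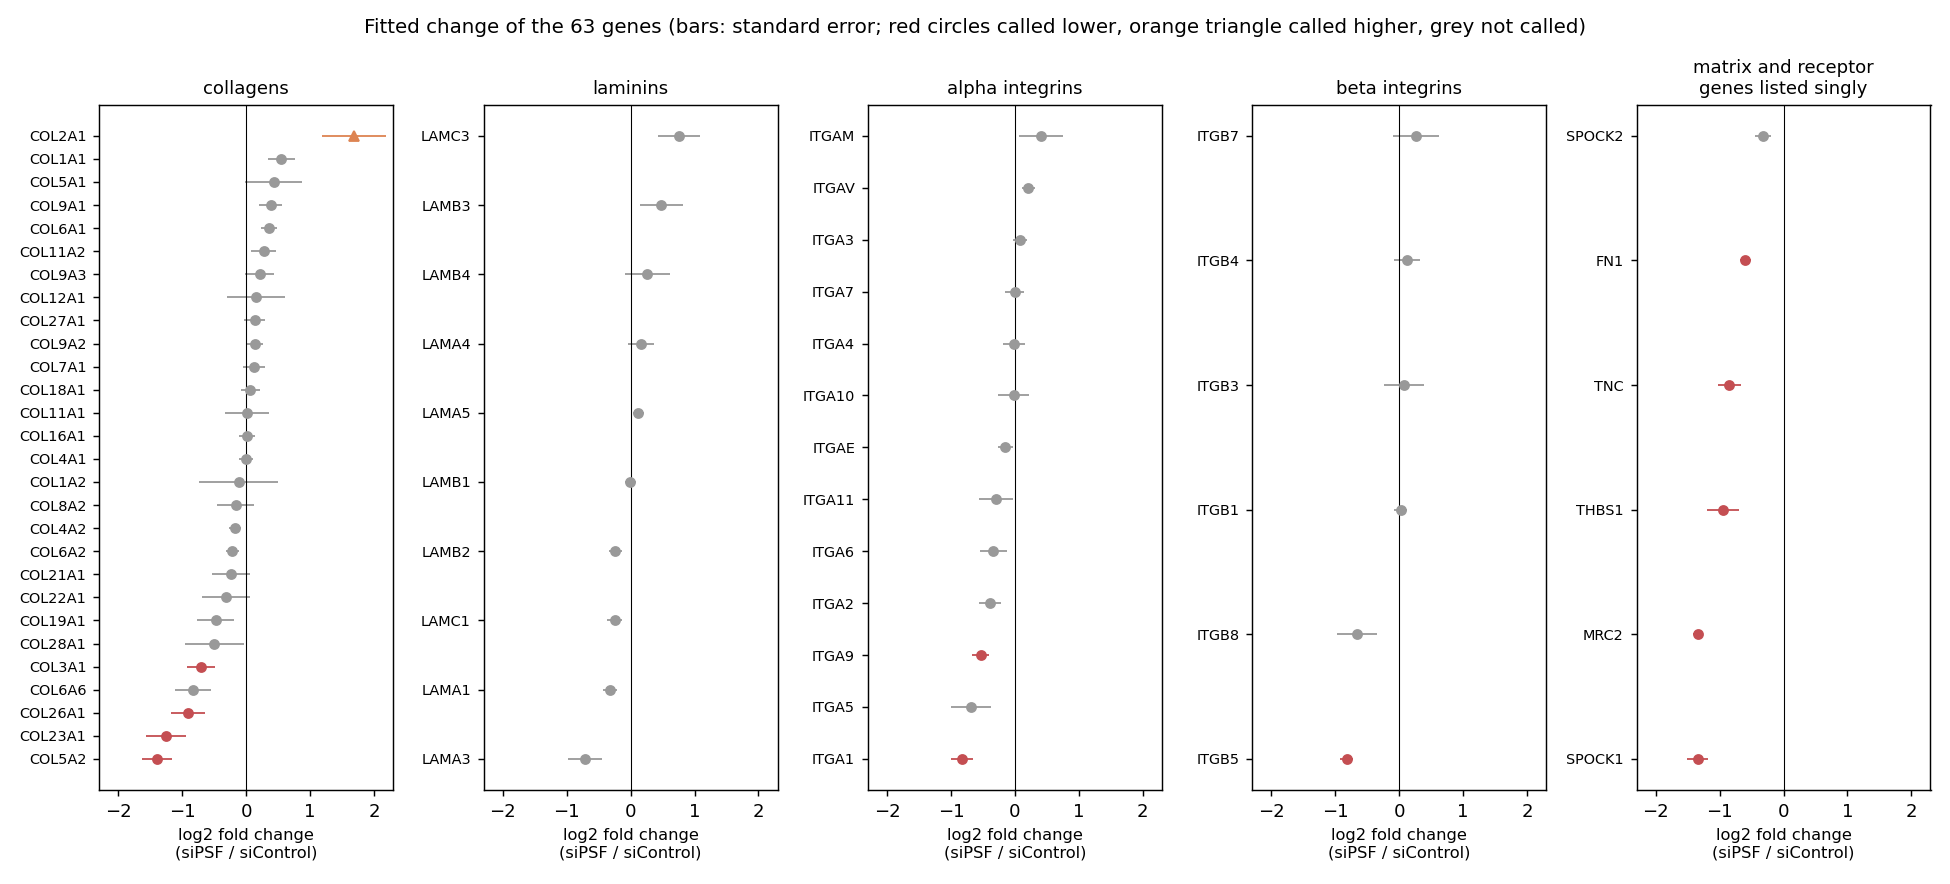
Fitted log2 fold change (siPSF over siControl, horizontal axis) of each gene, 1 panel per family, with the standard error as a bar. Red circles were called lower, the orange triangle was called higher and grey circles were not called. The families spread on both sides of 0, and the 6 genes chosen by name lie between -1.34 and -0.32.

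Among the 28 collagens 4 were called lower, 1 was called higher and 23 were not called, with a median log2 fold change of 0.00. The share called was 17.9%, beside 14.9% of all genes tested. DESeq2 called 4 collagens lower and 3 higher, COL1A1 and COL6A1 besides COL2A1. The collagens of highest level were network and beaded-filament chains. COL4A1, COL4A2, COL6A1 and COL6A2 together made up 76.8% ± 2.31 (SD, n = 3) of the collagen FPKM in siControl and 75.6% ± 1.52 in siPSF. Of these 4 genes edgeR called none, with all libraries in the fit, and DESeq2 called COL6A1 higher.

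COL5A2, a chain of the fibril-forming type V collagen, was the called collagen of highest mean level whose groups did not overlap. The libraries held 5.80, 4.68 and 4.85 CPM in siControl and 2.34, 2.36 and 1.12 CPM in siPSF. Its highest siPSF library was below its lowest siControl library. The log2 fold change was -1.39 ± 0.24 (SE, adjusted p = 0.0025), or 38.1% of the siControl mean, and it was called in 11 of 11 alternatives. COL5A2 spans 409 kb of chromosome 2 in RefSeq (chr2:189031898-189441111, GRCh38.p14). In GENCODE the gene is shorter (chr2:189031898-189225312), and the RefSeq length is the one used below. COL3A1, a fibril-forming chain whose gene ends 19.2 kb from that of COL5A2, was chosen after its values were seen. It went from 5.39 ± 0.90 CPM (SD, n = 3) to 3.30 ± 1.10 CPM, its groups overlapped, and its call (log2 fold change -0.71) was lost without siControl replicate 2 (-0.67) or 3 (-0.62) and without siPSF replicate 1 (-0.51) or 2 (-0.66).

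The other called collagens had means under 1 CPM over the 6 libraries and were also chosen after their values were seen. COL23A1, which encodes a transmembrane collagen, went from 0.645 ± 0.183 to 0.268 ± 0.0644 CPM (SD, n = 3), a log2 fold change of -1.26. That call was lost without siControl replicate 2 (-1.06). COL26A1 went from 1.29 ± 0.411 to 0.690 ± 0.146 CPM, a log2 fold change of -0.91. It stayed called without siPSF replicate 3, and lost its call without siControl replicate 1 (-0.62), 2 (-1.05) or 3 (-1.03) and without siPSF replicate 1 (-0.87) or 2 (-0.79). COL2A1, the cartilage collagen, was called higher from a level near 0. Its mean went from 0.0883 ± 0.0733 to 0.285 ± 0.080 CPM, with 5 counts in its lowest library. Its log2 fold change of 1.69 became 2.59 without siControl replicate 1, and the call was lost without siControl replicate 2 (1.41) or 3 (1.34) and without siPSF replicate 2 (1.45).

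COL6A1 and COL6A2 encode partner chains of collagen VI and lie 93.1 kb apart in the same direction on chromosome 21. COL6A2 was measured at 84.9, 91.8 and 81.3 CPM in siControl and at 64.9, 70.9 and 86.2 CPM in siPSF. Replicate 3 of siPSF lay within the siControl range. The fitted log2 change was -0.22 ± 0.11 (SE, adjusted p = 0.20), and it was called without siPSF replicate 3 (-0.34). COL6A1, chosen after its values were seen, was fitted at 0.36 ± 0.12 (SE, adjusted p = 0.069), and it was called without siPSF replicate 1 (0.44). By DESeq2's Wald test COL6A1 was called higher, at 0.35 (adjusted p = 0.045). The ratio of COL6A1 to COL6A2, also chosen after the values were seen, was 0.580, 0.533 and 0.533 in siControl and 0.815, 0.772 and 0.853 in siPSF on the FPKM scale. The ratio of the 2 groups did not overlap, with means of 0.548 ± 0.027 and 0.813 ± 0.040 (SD, n = 3). On the counts it was 0.715, 0.654 and 0.651 in siControl and 0.995, 0.951 and 1.04 in siPSF. No p-value is given for this ratio, since it was picked for its pattern, and an exact permutation test of 3 against 3 libraries cannot go below 0.10.

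**Figure D3:**
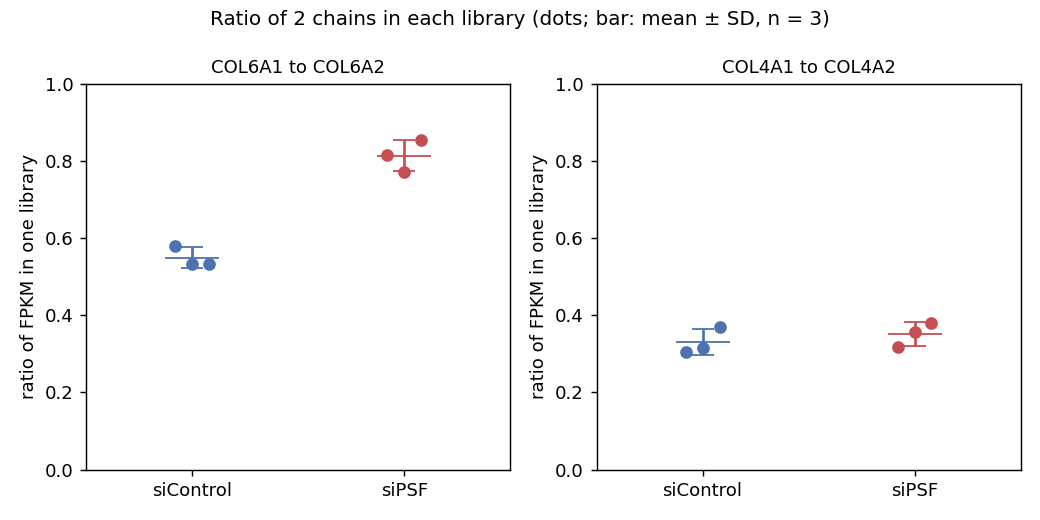
Ratio of FPKM of partner collagen chains in each library (dots), with the mean and SD of 3 libraries per group. The COL6A1 to COL6A2 ratio lies between 0.533 and 0.580 in siControl and between 0.772 and 0.853 in siPSF, while the COL4A1 to COL4A2 ratios of the groups overlap.

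COL4A1 and COL4A2, the type IV chains of most basement membranes, start 127 bases apart on chromosome 13 and are read in opposite directions. COL4A2 was measured at 106, 125 and 116 CPM in siControl and at 99.8, 115 and 93.0 CPM in siPSF. COL4A1 was measured at 35.6, 40.9 and 43.8 CPM in siControl and at 41.7, 42.1 and 36.1 CPM in siPSF. Both pairs of groups overlapped. The log2 fold changes were -0.17 ± 0.10 (SE, adjusted p = 0.26) for COL4A2 and -0.01 ± 0.10 (SE, adjusted p = 0.98) for COL4A1. The COL4A1 to COL4A2 ratio of FPKM was 0.305, 0.316 and 0.370 in siControl and 0.319, 0.358 and 0.380 in siPSF. COL4A1 is one of the genes for which FPKM per count was not constant, with a value 27.2% from the gene's median in 1 library. The RefSeq promoter window of COL4A2 (GRCh38.p14, chr13:110307034-110307333, plus strand, 250 bases before to 50 after the gene's start) is shown because the pair shares most of it. The capitals mark the 226 bases that the window of COL4A1 also holds, on the opposite strand.
COL4A2: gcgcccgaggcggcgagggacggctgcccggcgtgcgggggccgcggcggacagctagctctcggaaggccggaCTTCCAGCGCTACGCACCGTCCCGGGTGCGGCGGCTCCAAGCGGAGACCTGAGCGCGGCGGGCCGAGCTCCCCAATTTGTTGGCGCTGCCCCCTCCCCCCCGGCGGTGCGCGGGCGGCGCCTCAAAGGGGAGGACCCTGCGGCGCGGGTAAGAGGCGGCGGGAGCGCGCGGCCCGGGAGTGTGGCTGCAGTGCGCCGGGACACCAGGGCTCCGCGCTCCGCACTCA
In this window 77.7% of the bases were G or C.

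No laminin chain was called in either direction, beside 14.9% of all genes tested. Of the 10 chains, 1 was higher and 3 were lower at an unadjusted p under 0.05, and DESeq2 called 0 higher and 2 lower (LAMA1 and LAMA3). The median log2 fold change was 0.06. LAMB1 was measured at 447, 427 and 467 CPM in siControl and at 456, 451 and 432 CPM in siPSF. The groups overlapped, with a log2 fold change of -0.00 ± 0.08 (SE, adjusted p = 0.99). LAMC1, the gamma chain that most laminins contain, was measured at 170, 218 and 246 CPM in siControl and at 173, 190 and 171 CPM in siPSF. The siPSF libraries lay inside the siControl range. It was fitted at -0.25 ± 0.12 (SE, adjusted p = 0.19), and it was called without siControl replicate 1 (-0.38), the lowest of its group.

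The mix of laminin chains was described from FPKM, after the values were seen. LAMA5 gave 89.1% ± 1.16 of the alpha-chain FPKM in siControl and 91.5% ± 0.211 in siPSF (SD, n = 3). LAMA1 gave 8.19% ± 0.688 and 6.12% ± 0.402. LAMB1 gave 81.6% ± 1.67 and 84.0% ± 1.65 of the beta-chain FPKM, and LAMC1 gave 99.7% and 99.4% of the gamma-chain FPKM. In both groups the chains of highest level were therefore LAMA5, LAMB1 and LAMC1. LAMA1 and LAMA3, which encode embryonic and epithelial alpha chains, were fitted at -0.32 ± 0.11 (SE, adjusted p = 0.062) and -0.72 ± 0.26 (SE, adjusted p = 0.090). LAMA3 was called without siPSF replicate 2 (-1.07). In the other direction LAMC3, at a mean of 0.742 CPM over the 6 libraries, was fitted at 0.76 ± 0.33 (SE, adjusted p = 0.15). It was called in 1 of the 6 fits that left out 1 library. Of the 10 chains, 5 were fitted below 0 and 5 above.

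Of the 13 alpha integrins 2 were called lower and 11 were not called, with a median log2 fold change of -0.15. The share called was 15.4%, beside 14.9% of all genes tested. None was called higher by edgeR or DESeq2, and none was higher at an unadjusted p under 0.05. ITGA1 (chr5:52787916-52959209) encodes the alpha subunit of a collagen receptor. The level was 24.4, 32.7 and 36.1 CPM in siControl and 20.6, 19.1 and 12.9 CPM in siPSF. The groups did not overlap, although the lowest siControl library stood close to the siPSF libraries. The log2 fold change was -0.83 ± 0.18 (SE, adjusted p = 0.0084), and without siControl replicate 3 it was -0.71 with an adjusted p of 0.060. ITGA2, which encodes the alpha subunit of another collagen receptor and starts 30.1 kb beyond the end of ITGA1 on chromosome 5, was chosen after its values were seen. Its log2 fold change was -0.39 ± 0.17 (SE, adjusted p = 0.16).

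ITGA9 (chr3:37452141-37823507) encodes a subunit that binds tenascin-C and other matrix proteins. It was measured at 22.7, 27.9 and 32.6 CPM in siControl and at 20.5, 19.4 and 17.4 CPM in siPSF, again without overlap and with siControl replicate 1 nearest to the siPSF libraries. The log2 fold change was -0.54 ± 0.13 (SE, adjusted p = 0.017). The call was lost without siControl replicate 2 (-0.54, adjusted p = 0.063) or 3 (-0.41, adjusted p = 0.069).

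ITGA3, a laminin-binding subunit, and ITGAV, a subunit of fibronectin and vitronectin receptors, had the highest alpha levels. They gave 27.2% ± 2.73 and 20.4% ± 2.1 of the alpha-integrin FPKM in siControl (SD, n = 3). ITGA3 was measured at 34.0, 43.3 and 40.0 CPM in siControl and at 38.6, 44 and 41.4 CPM in siPSF. ITGAV was measured at 44.7, 38.0 and 45.2 CPM in siControl and at 50.1, 44.3 and 53.4 CPM in siPSF. For both genes the groups overlapped. Their log2 fold changes were 0.08 ± 0.11 (SE, adjusted p = 0.66) and 0.21 ± 0.10 (SE, adjusted p = 0.20).

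Of the 6 beta integrins ITGB5 was called lower and 5 were not called, with a median log2 fold change of 0.05. The share called was 16.7%, beside 14.9% of all genes tested. None was called higher by edgeR or DESeq2, and none was higher at an unadjusted p under 0.05. ITGB5 (chr3:124761948-124901418) pairs with ITGAV in a vitronectin receptor. Its level was 18.4, 21.5 and 19.5 CPM in siControl and 10.8, 10.9 and 11.9 CPM in siPSF. The siPSF libraries were tight and well below the siControl libraries. The log2 fold change was -0.82 ± 0.11 (SE, adjusted p = 4.3e-04), or 56.5% of the siControl mean, and it was called in 11 of 11 alternatives. ITGB8, chosen after its values were seen, was fitted at -0.66 ± 0.31 (SE, adjusted p = 0.18), and it was called without siPSF replicate 3 (-1.17).

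ITGB1 is the partner of most alpha subunits for collagen, laminin and fibronectin. It was measured at 247, 247 and 307 CPM in siControl and at 287, 254 and 275 CPM in siPSF. The siPSF libraries lay inside the siControl range, and the log2 fold change was 0.02 ± 0.10 (SE, adjusted p = 0.90). ITGB1 gave 91.8% ± 1.47 of the beta-integrin FPKM in siControl and 95.2% ± 0.371 in siPSF (SD, n = 3). The share of ITGB5 was 7.05% ± 1.36 and 3.79% ± 0.295, without overlap between groups. For ITGB5 too FPKM per count was not constant, with a value 10.3% from the gene's median in 1 library.

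The 6 genes chosen by name were lower in siPSF without overlap of the groups, and 5 of them were called by edgeR and 6 by DESeq2, which describes why they were chosen and says nothing more. Their summed level went from 323 ± 11.6 to 154 ± 1.71 CPM (SD, n = 3), and MRC2 was the largest part of both sums. MRC2 spans 65.9 kb of chromosome 17 (chr17:62627670-62693597). It was measured at 229, 228 and 208 CPM in siControl and at 90.5, 89.3 and 83.9 CPM in siPSF. The siPSF mean was 39.6% of the siControl mean, the log2 fold change was -1.34 ± 0.08 (SE), and leaving out 1 library kept it between -1.38 and -1.30.

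FN1 (chr2:215360865-215436068) encodes fibronectin, the matrix protein that many integrins bind. It was measured at 79.2, 76.3 and 80.5 CPM in siControl and at 47.9, 53.2 and 55.0 CPM in siPSF. FN1 had a log2 fold change of -0.60 ± 0.09 (SE), with a range of -0.64 to -0.54 when 1 library was left out. SPOCK1 and SPOCK2 encode testicans, secreted proteoglycans of nervous tissue. SPOCK1, the longest of the 63 genes at 524 kb (chr5:136975298-137499326), was measured at 6.26, 5.28 and 5.89 CPM in siControl and at 2.53, 1.83 and 2.50 CPM in siPSF. The log2 fold change was -1.34 ± 0.16 (SE). SPOCK2 was measured at 13.0, 12.5 and 11.6 CPM in siControl and at 9.39, 9.0 and 11.4 CPM in siPSF, so that replicate 3 of siPSF almost reached the siControl range. Its log2 fold change was -0.32 ± 0.12 (SE), and it was the gene of the 6 that edgeR did not call with all libraries, while it was called by DESeq2 (-0.33) and without siPSF replicate 3 (-0.43).

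TNC encodes tenascin-C and THBS1 encodes thrombospondin-1, matricellular proteins that alter cell adhesion. TNC was measured at 3.07, 2.36 and 2.74 CPM in siControl and at 1.5, 1.75 and 1.29 CPM in siPSF. THBS1 was measured at 1.5, 1.43 and 1.21 CPM in siControl and at 0.741, 0.909 and 0.487 CPM in siPSF. In both genes the highest siPSF library was below the lowest siControl library. The log2 fold changes were -0.85 ± 0.18 (SE) for TNC and -0.95 ± 0.25 (SE) for THBS1. THBS1 was called in 2 of the 6 fits that left out 1 library (-1.16 to -0.74), without siPSF replicate 2 or 3, and lost its call without any 1 of the siControl libraries and without siPSF replicate 1.

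**Figure D4:**
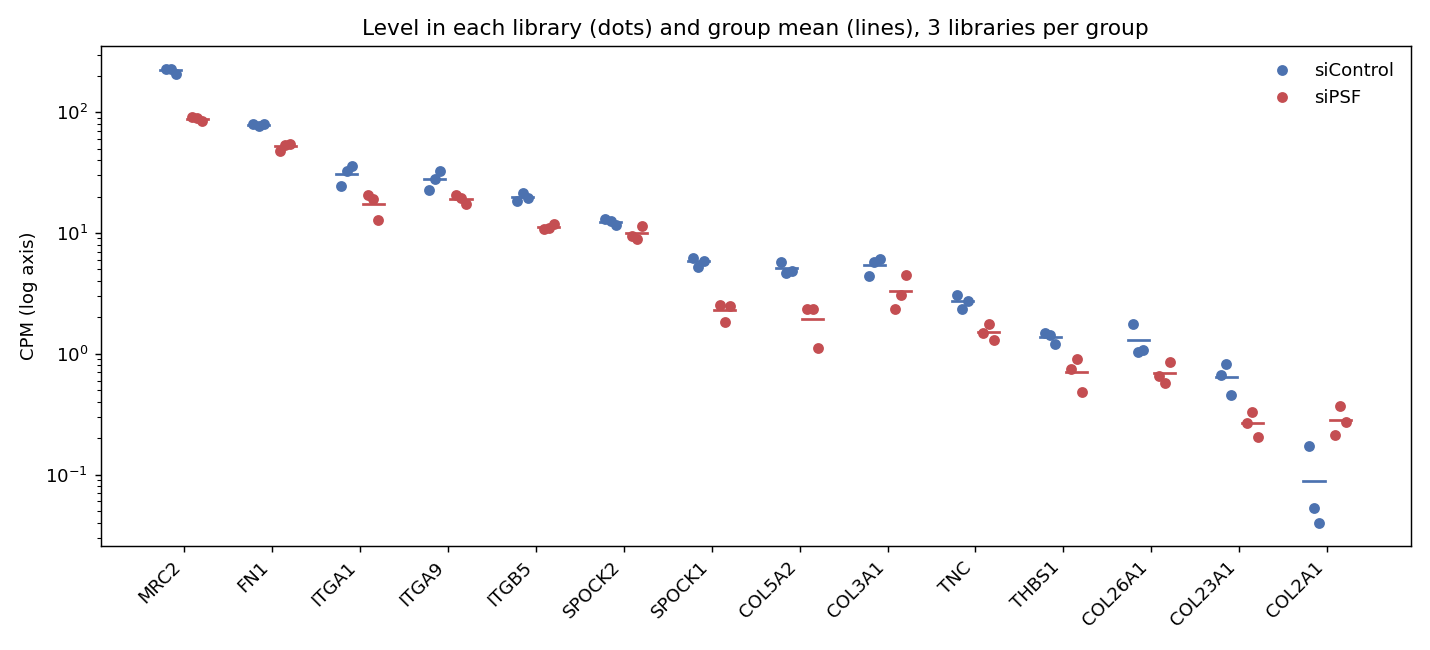
Level in each library (dots, CPM on a log axis) and group mean (lines) of the 13 called genes and of SPOCK2, with 3 siControl libraries in blue and 3 siPSF libraries in red. The groups overlap for COL3A1 and for no other gene shown, and COL2A1, at 0.369 CPM or less in each library, is the gene shown with higher siPSF values.

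For 46 of the 63 genes a RefSeq promoter window (GRCh38.p14, 250 bases before to 50 after the start) was read, MRC2, SPOCK1 and COL5A2 not being among them. The windows of FN1 (chr2:215436019-215436318, minus strand), TNC (chr9:115118108-115118407, minus strand) and THBS1 (chr15:39580829-39581128, plus strand) are shown because these secreted matrix genes were lower in siPSF. They were chosen with that fall known, so their falling together is not a result. Whether they share regulation was not tested. Capitals mark matches, on either strand, to the cyclic AMP response element TGACGTCA, to the CCAAT box, to the core TATAA of a TATA box and to the GC box core GGGCGG, and matches of GGGCGG can overlap each other.
FN1: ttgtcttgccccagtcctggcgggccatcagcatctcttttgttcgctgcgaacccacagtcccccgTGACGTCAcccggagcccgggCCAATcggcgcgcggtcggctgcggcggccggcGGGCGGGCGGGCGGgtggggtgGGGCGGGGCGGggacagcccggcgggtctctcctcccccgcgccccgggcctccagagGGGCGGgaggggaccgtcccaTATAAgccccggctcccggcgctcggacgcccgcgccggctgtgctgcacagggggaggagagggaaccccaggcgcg
TNC: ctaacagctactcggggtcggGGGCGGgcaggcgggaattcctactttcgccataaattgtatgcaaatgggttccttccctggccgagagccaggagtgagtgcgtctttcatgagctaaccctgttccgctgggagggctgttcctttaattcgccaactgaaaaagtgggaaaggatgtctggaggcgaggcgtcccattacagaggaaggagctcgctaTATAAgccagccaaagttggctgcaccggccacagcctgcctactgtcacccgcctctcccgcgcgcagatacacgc
THBS1: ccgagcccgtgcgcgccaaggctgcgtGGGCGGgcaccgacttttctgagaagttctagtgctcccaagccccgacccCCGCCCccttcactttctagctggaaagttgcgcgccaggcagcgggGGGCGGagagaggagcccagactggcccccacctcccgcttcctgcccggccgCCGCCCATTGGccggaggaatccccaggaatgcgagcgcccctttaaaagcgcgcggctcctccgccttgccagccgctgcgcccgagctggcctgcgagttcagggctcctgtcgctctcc
The 3 windows had 76.7%, 57.3% and 70.0% of G or C bases. FN1 held 1 TGACGTCA, 1 CCAAT, 1 TATAA and 6 GGGCGG matches, TNC held 1 TATAA and 1 GGGCGG match, and THBS1 held 1 CCAAT and 4 GGGCGG matches. TGACGTCA was in 1.84% of all 34943 windows of the table and in 1.61% of the 62 windows of the genes described here. The shares were 34.6% and 22.6% for CCAAT, 20.5% and 19.4% for TATAA, and 44.9% and 64.5% for GGGCGG. The matches are a description of these letters and not evidence of binding.

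Genes that fold, cut, bind or report on the same matrix were counted in 5 lists. Between 4.35% and 27.3% of a list was called, beside 14.9% of all genes tested (6.65% higher and 8.27% lower). Of 23 measured genes for collagen folding, modification and crosslinking 1 was called higher and 0 lower, with 0 lower at an unadjusted p under 0.05 and 0 by DESeq2, and the median log2 fold change was 0.09. The called gene was CRTAP, a part of the prolyl 3-hydroxylation complex, with a log2 fold change of 0.28 ± 0.08 (SE, adjusted p = 0.033). It was called without siPSF replicate 3 and in no other fit that left out 1 library (0.25 to 0.30). Of 24 genes for procollagen processing and matrix turnover 4 were called higher and 2 lower (25.0% called), with a median of -0.04. The collagen-degrading protease gene CTSK rose by 0.86 ± 0.13 (SE) and the protease inhibitor gene TIMP1 rose by 0.49 ± 0.12 (SE) on the log2 scale. The membrane metalloprotease gene MMP16 had a log2 fold change of -0.51 ± 0.10 (SE) and the urokinase receptor gene PLAUR of -0.48 ± 0.13 (SE). TIMP1 lost its call without siControl replicate 3 (0.41), and PLAUR lost it without siControl replicate 1 (-0.42) or 2 (-0.43) and without siPSF replicate 1 (-0.44) or 2 (-0.49).

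Of 28 other basement membrane and matricellular genes 1 was called higher and 4 lower (17.9% called, beside 14.9% of all genes tested), with a median of -0.02. Those named by smallest p were THBS4 (log2 fold change -0.90 ± 0.14, SE) and HSPG2 (-0.66 ± 0.11, SE), which encode a thrombospondin and the basement membrane proteoglycan perlecan, and the higher one was FBLN2 (0.65 ± 0.19, SE), whose call was lost without any 1 of the siControl libraries (0.64 to 0.65) and without siPSF replicate 3 (0.32). Of 43 genes of integrin adaptors and focal adhesions 1 was called higher and 7 lower (18.6% called), with a median of -0.07. EVL, an actin regulator of the Ena/VASP family, had -0.73 ± 0.08 (SE) and RSU1, a partner of the integrin-linked kinase complex, had -0.55 ± 0.11 (SE). FERMT3, a kindlin, had 1.31 ± 0.33 (SE) from 0.405 ± 0.174 CPM in siControl, a call lost without siControl replicate 3 (0.99) or siPSF replicate 2 (1.11). Of 22 genes listed as other receptors for collagen, laminin and fibronectin 1 was called higher and 5 lower (27.3% called), with a median of -0.07. All 5 genes called lower encode heparan sulfate proteoglycans, 1 of them a syndecan and the others glypicans. The listed DDR1, DDR2, DAG1, BCAM and CD44, like those 5 looked up after the calls were seen, were also not called (log2 fold changes -0.18 to 0.52). The heparan sulfate proteoglycan genes GPC6 and SDC2 had -1.52 ± 0.13 (SE) and -0.60 ± 0.11 (SE). RPSA, which encodes a laminin-binding protein that is also a ribosomal protein, had 0.48 ± 0.11 (SE). It has processed pseudogenes, so its count is uncertain.

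The genes called lower were compared by the length of the gene in RefSeq. Counted with the 6 genes chosen by name, 7 of the 26 genes at least 100 kb long were called lower (26.9%). The Wilson 95% interval of 13.7% to 46.1% holds counting error only and takes genes of the same 6 libraries as independent. Of the 37 shorter genes 5 were called lower (13.5%). SPOCK1 among the longer genes called lower, and MRC2, FN1, THBS1 and TNC among the shorter ones, were chosen with their changes known. Without siControl replicate 2, and also without siControl replicate 3, the share of the longer genes was 15.4%. Among the 57 genes of whole families the counts were 6 of 25 (24.0%) and 1 of 32 (3.13%). Among all protein-coding genes tested with a known length the shares were 25.1% of 2770 and 4.65% of 11646. The share in the long family genes was thus near that of long genes in general. Across these 57 genes, which share the same 6 libraries, Spearman's rho between length and log2 fold change was -0.48, and across 14416 protein-coding genes it was -0.30. MRC2 and FN1, at 65.9 and 75.2 kb, were below the limit.

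**Figure D5:**
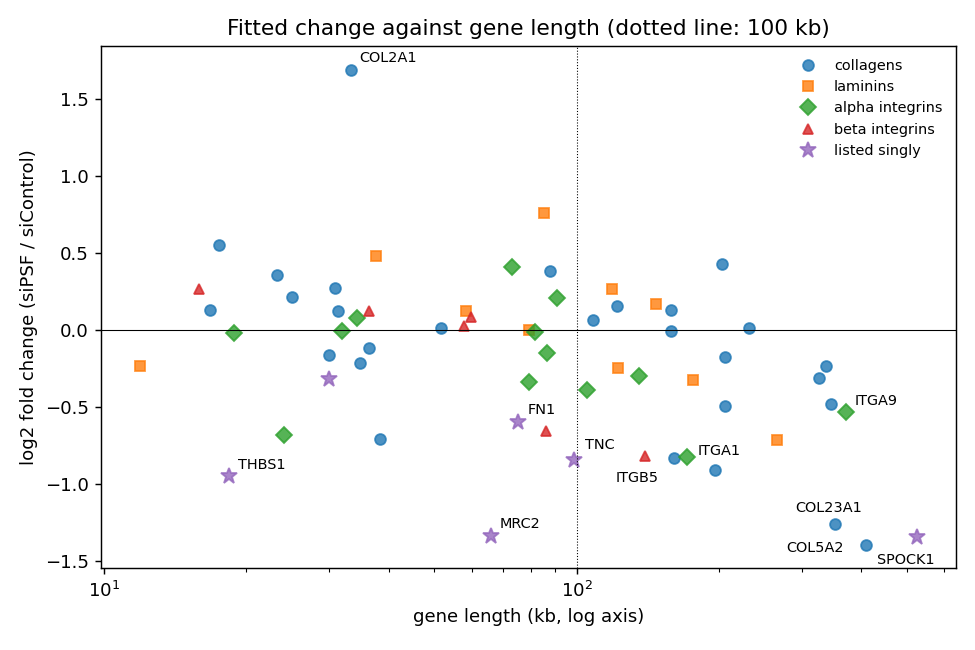
Fitted log2 fold change (siPSF over siControl) against gene length in kb (log axis), 1 symbol per gene, with the 100 kb limit as a dotted line. The long genes SPOCK1, COL5A2 and COL23A1 lie at -1.26 or below, and MRC2 has a value as low at 65.9 kb.

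Exons of some of these genes overlap exons of another gene in GENCODE, and the sources used here do not state whether strand was used in counting, so their counts are uncertain. For ITGA9, 9.23% of the exon bases lie opposite ITGA9-AS1, which was at 0.360 CPM in siControl. For MRC2 10.3% lie opposite a gene of unproven status that was not analysed here. For THBS1 4.89% lie opposite FSIP1, at 1.16 CPM in siControl, and 4.49% opposite THBS1-AS1, which was not analysed here. For ITGA1 2.69% are shared with PELO on the same strand, at 28.3 CPM in siControl. A further 7.47% lie opposite ITGA2-AS1 and 3.08% are shared with the pseudogene RPL17P21 on the same strand, neither of which was analysed here. Among genes that were not called, the largest overlaps with a measured gene were those of ITGB7 with ZNF740 (42.3%), ITGA4 with CERKL (26.4%) and COL18A1 with SLC19A1 (18.5%).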

How the data were processed

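SH-SY5Y cells were measured by RNA-seq in 2 groups of 3 libraries, grouped by the treatment given in the labels. The table deposited by the authors pairs, for each library, raw read counts of genes with their FPKM. The paper's methods give poly(A) libraries (TruSeq RNA v2), 50 bp paired-end reads, removal of rRNA reads with Bowtie 2 (2.2.6), TopHat 2.1.0 on hg38 and RefSeq genes. The submitters' processing notes name Trimmomatic, HISAT2 2.1.0, StringTie 2.1.3b and GRCh38, and the labels name a stranded kit. These accounts were not reconciled. The deposited counts were not normalized, and the authors scaled the deposited FPKM by exon length and mapped reads. No per-sample column was left unused (0 columns).

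The 63 genes, the pathway lists and the length split were chosen with earlier results of these data known. Counts were filtered with filterByExpr (19694 genes left), scaled by TMM and fitted with edgeR (quasi-likelihood). The p-values were adjusted after Benjamini and Hochberg over those genes, with a threshold of 0.05. The common biological coefficient of variation was 12.6%. Replicates were compared by chi-square, and no pair of libraries was alike within sampling noise. CPM are counts divided by the TMM-scaled library total. Values of every library are given for genes called with a mean of 1 CPM or more and no overlap, the genes listed by symbol, the 2 of highest FPKM per family and COL4A1 with COL4A2; other genes were chosen after their values were seen, and from each list the 2 called genes of smallest p per direction are named. Alternatives were DESeq2's size factors and Wald test, no filter, a replicate block, each library left out, other length limits (50 and 200 kb) and limma on log2(FPKM + 0.5) for genes of mean FPKM 0.5 or more. Positions and lengths came from RefSeq GRCh38.p14 (63 of 63 matched) and overlaps from GENCODE release 44. Python 3.11.15 (scipy 1.17.1, numpy 2.4.6, pandas 2.3.3) and R 4.3.3 with DESeq2 1.42.0, edgeR 4.0.16 and limma 3.58.1 served for the computations.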

Additional observations from a re-analysis of the deposited data

How the results depend on the processing

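The 12 genes called lower became 7 with limma on log2(FPKM + 0.5), where 31 of the 63 genes could be tested, and between 7 and 16 when 1 library was left out. These counts include genes chosen by name with their changes known. The 1 gene called higher became 0 without the filter on low counts (3 at an unadjusted p under 0.05), 3 with DESeq2's Wald test, 0 with the replicate block (4 unadjusted), 0 with limma (0 unadjusted), and between 0 and 3 when 1 library was left out. The cause was not tested. Same-numbered libraries did not deviate together (correlations of -0.02, 0.06 and 0.06, beside -0.12 to 0.07 for libraries of different number). These correlations cannot show whether same-numbered libraries were prepared together, and the labels do not say so. The replicate block gave 11 genes called lower. Of the 50 genes that were not called, 18 changed the sign of their log2 fold change in at least 1 alternative and were not called there, and 0 of the 13 called genes did. Among those with values in every library given here, with 1 library left out, COL4A1 lay between -0.086 and 0.063, LAMB1 between -0.043 and 0.027, ITGA3 between -0.013 and 0.15, and ITGB1 between -0.039 and 0.13. With limma, ITGA3 was -0.0010 and ITGB1 was -0.048. The median log2 fold change over all genes tested was -0.059 with limma and 0.010 in the main edgeR fit. The calls of COL26A1, COL2A1 and FBLN2 were lost without the filter and with the block, that of COL3A1 was lost without the filter, and those of COL3A1, FBLN2 and CRTAP were lost with limma. The share of genes of 100 kb or more called lower, SPOCK1 included, lay between 15.4% and 41.7% in these alternatives. Under limma 12 such genes were left. Over all genes, between 928 and 2046 were called lower. Counts as low as 5 limit the rare collagens, and only 1 cell line and 1 siRNA against PSF were compared, so effects of that siRNA other than on PSF cannot be told apart from the loss of PSF.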
